A study of Drosophila melanogaster with 24 samples.

Results

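The genes described here are 36 genes of mitosis in Drosophila melanogaster, from cyclins and checkpoint proteins to kinetochore, condensin, spindle and cytokinesis proteins. They were found by symbol, old or current, among the named probes of an Agilent 4x44K array, which names 12799 genes in all. Of the 36, 27 had at least 1 named probe, 74 probes together, and were measured. The other 9 (CycA, Cdk1, polo, aurA, stg, BubR1, Klp3A, pav and sti) were not analysed here. Each gene is given by its probe of highest mean level, and levels are log2 values as deposited, so that a difference of 1 is a doubling. No filter on low values was applied, and all 27 were tested.

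Mitosis is driven by cyclin-dependent kinase with its mitotic cyclins. The spindle checkpoint holds chromosomes until kinetochores are attached, and the anaphase promoting complex then has securin and the cyclins destroyed. In the fly, most cells of the late embryo have left the mitotic cycle. After hatching, most larval tissues grow by endocycles, in which S phases follow one another without mitosis, while neuroblasts and imaginal cells divide. Cyclin E and the anaphase promoting complex activator fzr are known for their parts in endocycles, whereas cyclin B and the activator fzy belong to mitosis.

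Manf, the fly homologue of the neurotrophic factors MANF and CDNF, was removed or overexpressed, and RNA of whole animals was compared. Flies called wild type were w-, a background shared by every genotype. Larvae were zygotic Manf Δ96 mutants, which keep the maternal Manf product (labels give ages between 29 and 50 h after egg laying), Manf overexpressing larvae with 69B-GAL4 driving UAS-Manf133 (29 to 44 h; the driver is active in epidermis and several other tissues, among them nervous system and imaginal discs, and not in all cells), and wild type larvae (29 to 45 h). Embryos were mzΔ96 mutants without maternal and zygotic Manf (mz mutant; 21 to 24 h), embryos of mutant mothers with a paternal wild type copy (rescued), and wild type embryos, collected late in embryogenesis around the time of tracheal air filling. Each group had 4 samples, and overexpressing larvae 69 and 70 were set aside, which left 22 samples and 2 overexpressing larvae. How many animals were pooled in a sample, and which samples shared an array, is not given in the sources used here. The study's methods describe fewer independent sets of samples than the labels give samples a group, and which samples form a set is not given in the sources used here. P-values therefore measure the spread between these samples, part of which may be technical.

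Some features of the libraries bear on every comparison. Overexpressing larvae 69 and 70 correlated with the other samples at only 0.370 to 0.442 over all probes, where the 22 correlated at 0.886 to 0.994 among themselves. Sample numbers fall into a low series (1 to 4) and a high series (63 to 88), and the 2 overexpressing larvae used are both of the low series. All wild type larvae were labelled with Cy3 and no mutant or overexpressing larva was, so that dye and genotype cannot be told apart there. Mutant larvae 2 and 4 were labelled with Alexa488 and reach 50 h, and mutant larvae 65 and 66 were labelled with Cy5 and reach 44 h. In mutant larvae the number series, dye and age window therefore cannot be told apart. Of the embryos, no mz mutant was labelled with Cy3, against 3 of 4 wild type. Manf itself read 11.29 in the library labelled mz mutant embryo 1 and 9.14 to 10.12 in the other mz mutant embryos, against 11.10 to 11.48 in wild type embryos. The libraries labelled mutant larvae 65 and 66 read 12.48 and 13.50 for Manf and mutant larvae 2 and 4 read 10.67 and 10.46, against 11.65 and 11.59 in wild type larvae 1 and 2 and 13.18 and 13.64 in wild type larvae 63 and 65. Larval Manf thus followed the number series: within the high series mutant larva 65 lay below both wild type larvae and mutant larva 66 between them, while both lay above wild type larvae 1 and 2. Manf read 14.23 and 14.40 in overexpressing larvae 2 and 3. Whether the Manf probes lie in the deleted part is not given in the sources used here. The comparisons that use the libraries labelled mz mutant embryo 1 and mutant larvae 65 and 66 are therefore given without these 3 as well, a choice made after their values were seen. In whole animals fewer dividing cells and less RNA per cell cannot be told apart.

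**Figure D1:**
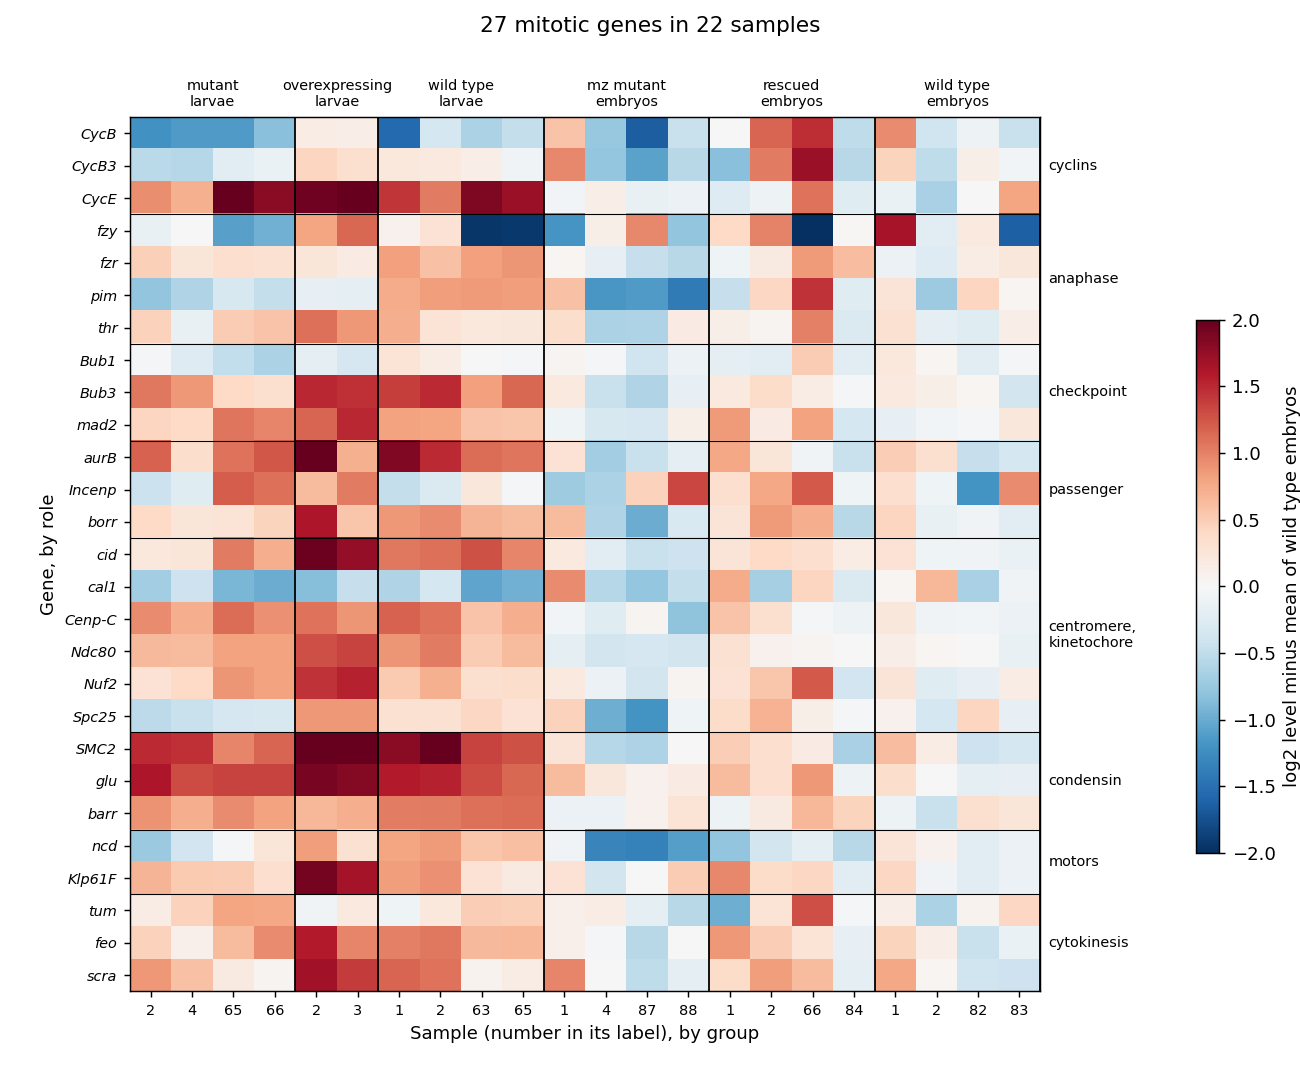
Each cell is the log2 level of a gene (rows, 27 genes grouped by role) in a sample (columns, 22 samples with the number of their label, in 6 groups), minus the gene's mean in the 4 wild type embryos; red is higher and blue lower. The 3 condensin genes are red in every larva, while CycB is blue in all 4 mutant larvae and all 4 wild type larvae.

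Averaged by group, the mean log2 level of the 27 genes lay higher in larvae than in embryos, and it differed between samples of a group. It was 10.06 ± 0.11 in mutant larvae (SD, n = 4), 10.69 ± 0.09 in overexpressing larvae (SD, n = 2) and 10.31 ± 0.15 in wild type larvae (SD, n = 4). In embryos it was 9.50 ± 0.30 in mz mutant, 9.95 ± 0.31 in rescued and 9.72 ± 0.22 in wild type embryos (SD, n = 4 each). The embryo groups overlapped in this mean, with 9.25 to 9.92 in mz mutant, 9.53 to 10.27 in rescued and 9.59 to 10.04 in wild type embryos. Overexpressing larvae, at 10.63 and 10.76, lay above the other larvae, at 9.93 to 10.15 in mutant and 10.17 to 10.47 in wild type larvae. Single samples overlapped between the stages. Rescued embryo 66, at 10.27, lay above all 4 mutant larvae and above wild type larvae 63 and 65 (10.18 and 10.17). Wild type larvae and wild type embryos did not overlap. No test was made of this mean.

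**Figure D2:**
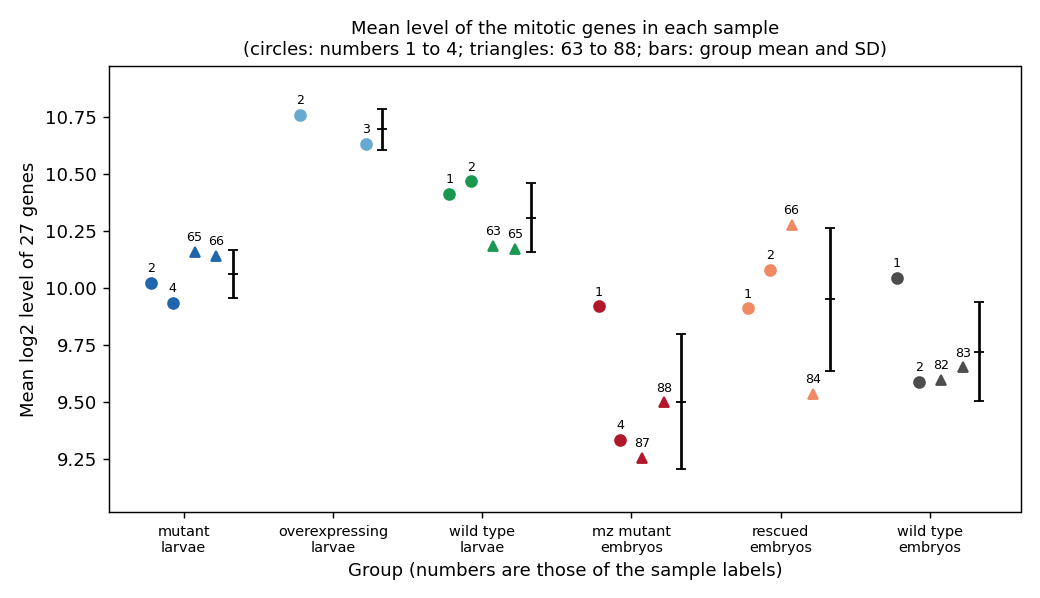
Mean log2 level of the 27 genes in each of the 22 samples (vertical axis), by group, with sample numbers; circles are the low number series, triangles the high one, and bars the group mean and SD. The library labelled mz mutant embryo 1 (9.92), rescued embryo 66 (10.27) and wild type embryo 1 (10.04) are the highest of their groups.

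Wild type larvae were set against wild type embryos to show how the genes differ with stage. Of the 27 genes, 11 were higher in wild type larvae at an adjusted p below 0.01 (limma, Benjamini-Hochberg over all 12799 genes) and none was lower. Over all genes 13.8% were called higher and 24.7% were called in either direction. The median log2 difference of the 27 was 0.70, against 0.00 over all genes, and 23 of 27 were positive where 50.2% of all genes were. In 16 of the 27 every wild type larva lay above every wild type embryo, which 19.4% of all genes did. All 3 condensin genes were called, and 1 of 3 cyclins; the difference between roles was not tested.

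Condensin packs chromosomes for mitosis. SMC2, an ATPase core subunit, read 11.31, 11.64, 10.85 and 10.79 in wild type larvae 1, 2, 63 and 65, against 10.13, 9.65, 9.09 and 9.16 in wild type embryos 1, 2, 82 and 83. Its difference of 1.64 (SE 0.28, adjusted p = 1.05e-04) was the largest of the 27. The other ATPase subunit glu, the fly SMC4, read 11.10, 11.06, 10.82 and 10.66 in wild type larvae and 9.87, 9.51, 9.34 and 9.36 in wild type embryos, and the non-overlapping groups differed by 1.39 (SE 0.18, adjusted p = 6.56e-06). For barr, the kleisin subunit, wild type larvae lay between 11.69 and 11.78 and wild type embryos between 10.22 and 10.98 (1.07, SE 0.16, adjusted p = 3.83e-05). All 3 probes of SMC2, all 3 of glu and both of barr were called when every probe was tested.

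Among the cyclins the stage difference went both ways. CycE, the cyclin of S phase entry and of endocycles, read 10.07, 9.68, 10.50 and 10.36 in wild type larvae, against 8.50, 7.98, 8.64 and 9.42 in wild type embryos. The groups do not overlap, and the difference was 1.52 (SE 0.34, adjusted p = 0.00171); all 13 CycE probes were positive and 11 of them were called. The mitotic cyclin CycB read 9.50, 10.70, 10.42 and 10.59 in wild type larvae, against 12.01, 10.66, 10.95 and 10.61 in wild type embryos. These groups overlap, and the difference of -0.75 (SE 0.45, adjusted p = 0.222) did not pass the test, with all 3 CycB probes negative. CycB3, the other mitotic cyclin measured, differed by 0.12 (SE 0.46, adjusted p = 0.876).

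Of the 2 activators of the anaphase promoting complex 1 was called. fzr, the Cdh1 homologue that acts in G1 and endocycling cells, read 13.35, 13.12, 13.35 and 13.42 in wild type larvae, against 12.41, 12.27, 12.67 and 12.76 in wild type embryos, a difference of 0.78 (SE 0.18, adjusted p = 0.00195) between groups that do not overlap. fzy, the Cdc20 homologue that acts in mitosis, read 13.05, 13.24, 11.02 and 11.04 in wild type larvae, against 14.61, 12.74, 13.16 and 11.34 in wild type embryos. The groups overlap, the difference of -0.87 (SE 0.73, adjusted p = 0.395) did not pass the test, 2 of its 3 probes were negative and 1 was positive, and wild type larvae 1 and 2 read far above wild type larvae 63 and 65. The securin pim differed by 0.82 (adjusted p = 0.124) with every wild type larva above every wild type embryo, and thr, which works with separase, by 0.36 (adjusted p = 0.334).

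At centromeres and kinetochores 3 of 6 genes were called. cid, the centromeric histone, read 8.92, 8.97, 9.13 and 8.83 in wild type larvae and 8.15, 7.78, 7.80 and 7.73 in wild type embryos (1.10, SE 0.17, adjusted p = 5.53e-05). Ndc80, the microtubule-binding kinetochore subunit, read 9.15, 9.31, 8.79 and 8.92 in wild type larvae and 8.41, 8.31, 8.26 and 8.13 in wild type embryos (0.76, SE 0.11, adjusted p = 2.73e-05). Cenp-C, which links centromeric chromatin to the kinetochore, lay between 8.47 and 9.08 in wild type larvae and between 7.78 and 8.12 in wild type embryos (0.89, SE 0.19, adjusted p = 9.57e-04). None of these 3 overlapped between the stages. Nuf2 and Spc25, partners of Ndc80 in its complex, differed by 0.48 and 0.32 and were not called, and cal1, which loads cid onto centromeres, gave -0.74 (SE 0.35, adjusted p = 0.120) from both of its probes.

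In the chromosomal passenger complex the kinase gene aurB read 11.21, 10.84, 10.46 and 10.43 in wild type larvae, against 9.84, 9.67, 8.89 and 8.99 in wild type embryos (1.38, SE 0.35, adjusted p = 0.00465). Its partners borr, at 0.78 (adjusted p = 0.0631), and Incenp, at -0.14 (adjusted p = 0.861), were not called. Of the checkpoint genes, Bub3 read 13.30, 13.41, 12.73 and 13.07 in wild type larvae and 12.12, 12.03, 11.96 and 11.55 in wild type embryos (1.21, SE 0.20, adjusted p = 7.33e-05). mad2 gave 0.68 (adjusted p = 0.0232) and the kinase gene Bub1 0.10 (adjusted p = 0.723). feo, the PRC1 homologue of the spindle midzone, lay between 10.17 and 10.57 in wild type larvae and between 9.08 and 9.96 in wild type embryos (0.84, SE 0.24, adjusted p = 0.00884). The other genes of cytokinesis, scra (anillin, 0.62) and tum (RacGAP of centralspindlin, 0.27), and the spindle motors ncd (kinesin-14, 0.70, adjusted p = 0.0366) and Klp61F (kinesin-5, 0.55) were not called.

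**Figure D3:**
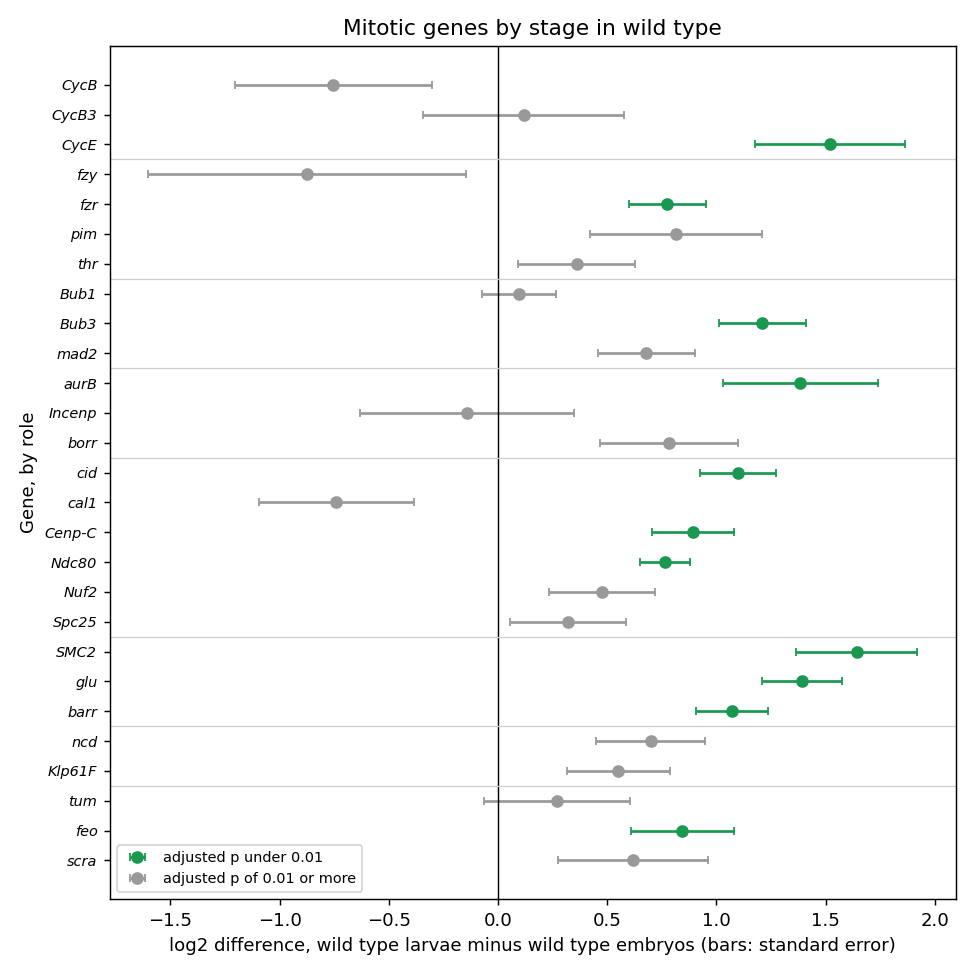
Log2 difference, wild type larvae minus wild type embryos, for the 27 genes by role, with standard errors (4 samples per stage); green marks the 11 genes with adjusted p below 0.01. The 11 lie between 0.76 and 1.64, and CycB, fzy, cal1 and Incenp lie left of 0.

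All 11 stay positive in each of the settings tried. When every probe was tested, all probes of these 11 genes were positive, but not all were called. Besides condensin and CycE, both probes of cid and of Ndc80 were called, and 2 of 4 of fzr. Of Cenp-C 1 of 4 was called, with values from 0.29 to 0.89. Of aurB (0.66 and 1.38), Bub3 and feo 1 of 2 was called each. Leaving out any 1 of the 22 samples kept 9 of the 11 calls each time, while aurB was called in 18 and feo in 9 of 22 such fits. With overexpressing larvae 69 and 70 included only SMC2 and Bub3 were called. Within the low series 9 genes were called and within the high series 8. The share of all genes called in these other fits is not given here. Other cell cycle genes and DNA replication genes gave values on the same contrast: 27 of 59 other cell cycle genes were higher and 1 was lower, with a median of 0.51, and 23 of 26 DNA replication genes were higher, with a median of 1.84. The differences between these lists were not tested. The largest among the other cell cycle genes were ida (2.43, an anaphase promoting complex subunit), mus304 (2.09, the ATR partner), Cdc23 (1.81, an anaphase promoting complex subunit), Rcc1 (1.74, the Ran exchange factor), Cap-D2 (1.56, a condensin subunit) and Cdk2 (1.54, the kinase of cyclin E). Cap-H2, a subunit of condensin II, was the gene that was lower (-0.80, adjusted p = 0.00181).

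Markers of dividing cells moved little or downwards between the stages. Of 8 neuroblast genes none was higher and 2 were lower in wild type larvae, dpn (-0.93, adjusted p = 1.18e-04) and mira (-1.12, adjusted p = 0.00411), and their mean level was 10.21 to 10.44 in wild type larvae and 10.56 to 10.70 in wild type embryos. Of 5 imaginal genes nub was lower (-0.96, adjusted p = 6.88e-04), with mean levels of 10.29 to 10.47 in wild type larvae and 10.60 to 11.09 in wild type embryos. Of 7 germline genes none was called, with mean levels of 9.12 to 9.40 in wild type larvae and 8.88 to 9.48 in wild type embryos. Of 5 neuron, 4 muscle and 5 fat body genes none was called, and of 7 larval gut genes 1 was lower, the maltase gene Mal-A1 (-0.92). The part of these markers in the stage difference was not tested.

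Larvae labelled as zygotic mutants were set against larvae labelled as overexpressing Manf. Of the 27 genes 3 were lower in mutant larvae and none was higher, where 1.85% of all genes were called lower and 3.77% were called in either direction. The median difference was -0.64 against -0.02 over all genes, and 24 of 27 were negative where 52.5% of all genes were. In 18 of the 27 every mutant larva lay below both overexpressing larvae, which 19.3% of all genes did.

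cid read 8.07, 8.10, 8.90 and 8.59 in mutant larvae 2, 4, 65 and 66, against 9.82 and 9.62 in overexpressing larvae 2 and 3, and 8.83 to 9.13 in wild type larvae. The mutant larvae lay 1.30 below the overexpressing larvae (SE 0.21, adjusted p = 7.59e-04), a 2.47-fold difference, and both cid probes were called. Klp61F, the bipolar motor that pushes spindle poles apart, read 10.08, 9.93, 9.91 and 9.75 in mutant larvae, against 11.32 and 11.08 in overexpressing larvae. It differed by -1.28 (SE 0.29, adjusted p = 0.00815), with all 3 probes negative and 1 called. Ndc80 read 8.92, 8.91, 9.08 and 9.08 in mutant larvae, against 9.57 and 9.64 in overexpressing larvae (-0.60, SE 0.14, adjusted p = 0.00968). Both Ndc80 probes were negative and 1 was called. In all 3 genes the groups do not overlap, and both overexpressing larvae also lay above every wild type larva, while mutant and wild type larvae overlap. Wild type larvae lay between 9.58 and 10.32 for Klp61F and between 8.79 and 9.31 for Ndc80.

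These 3 calls rest on 2 overexpressing larvae. Without overexpressing larva 2, and likewise without overexpressing larva 3, none was called; the remaining larva was then assumed to vary as samples of the other groups do. The differences stayed near their size with larger standard errors, at -1.20 and -1.41 for cid (adjusted p = 0.0254 and 0.0109), -1.16 and -1.40 for Klp61F and -0.64 and -0.57 for Ndc80. cid was called in the other 20 fits that left out 1 sample, Klp61F in 12 of 22 and Ndc80 in 4 of 22. With overexpressing larvae 69 and 70 included the differences were -1.19 for cid (adjusted p = 0.0990), -0.03 for Klp61F and 0.21 for Ndc80, and the single gene called was Bub3 (-1.26, adjusted p = 0.00597). With dye as a covariate cid was called (-1.24, adjusted p = 0.00398), while Klp61F gave -1.14 (adjusted p = 0.0274) and Ndc80 -0.55 (adjusted p = 0.0330). Both overexpressing larvae are of the low series and were labelled with Cy5 (29 to 44 h). The mutant larvae of that series were labelled with Alexa488 and reach 50 h, so that genotype, dye and age window cannot be told apart within it. Within that series 4 genes were called, cid (-1.63, adjusted p = 0.00151), CycE (-1.21, adjusted p = 0.00736), Incenp (-1.17, adjusted p = 0.00899) and Nuf2 (-1.14, adjusted p = 0.00718). There Klp61F gave -1.19 (adjusted p = 0.0211) and Ndc80 -0.68 (adjusted p = 0.0126). With the series as a block cid and Klp61F were called. Without the libraries labelled mz mutant embryo 1 and mutant larvae 65 and 66, cid (-1.63) and ncd (-1.13, adjusted p = 0.00430) were called. For these alternative fits the share of all genes called is not given here, so their counts cannot be set against it. Of 26 DNA replication genes 4 were lower in mutant than in overexpressing larvae, with a median of -0.64. The mean level of the 8 neuroblast genes was 10.17 to 10.42 in mutant larvae and 10.56 to 10.60 in overexpressing larvae, that of the 5 imaginal genes 10.10 to 10.49 in mutant larvae and 10.09 to 10.17 in overexpressing larvae, and the part of these markers was not tested. Near the threshold stood Spc25 at -1.27 (adjusted p = 0.0191) and Bub3 at -0.83 (adjusted p = 0.0362). The largest difference, fzy at -1.51, had SE 0.89 and adjusted p = 0.320.

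Overexpressing larvae themselves were set against wild type larvae, and none of the 27 genes was called, where 0.711% of all genes were (limma; 8 of the 27 had an unadjusted p below 0.05, as had 1762 of all 12799 genes). The median difference was 0.44 against -0.01 over all genes, with 21 of 27 positive. In 14 of the 27 both overexpressing larvae lay above every wild type larva, which 17.7% of all genes did. Klp61F differed by 1.24 (SE 0.29, adjusted p = 0.0289), Nuf2 by 1.01 (adjusted p = 0.0905), cid by 0.76 (adjusted p = 0.0766) and Ndc80 by 0.56 (adjusted p = 0.0409). CycB read 11.21 and 11.19 in overexpressing larvae (0.90, SE 0.55, adjusted p = 0.500), and CycE read 10.58 and 10.75 (0.51, adjusted p = 0.636). Negative values came from pim (-0.998), fzr (-0.57, with 12.77 and 12.70 in overexpressing larvae), barr (-0.38), Bub1 (-0.36), tum (-0.21) and ncd (-0.13). With larvae 69 and 70 included the median of the 27 was -0.25, where that of all genes was -0.20, and 15 of the 27 had the opposite sign. Markers moved in the same comparison. The mean level of the 8 neuroblast genes was 10.56 to 10.60 in overexpressing and 10.21 to 10.44 in wild type larvae, and that of the 7 larval gut genes 14.42 to 14.58 in overexpressing and 13.79 to 14.19 in wild type larvae. That of the 5 imaginal genes was 10.09 to 10.17 in overexpressing and 10.29 to 10.47 in wild type larvae. None of these genes was called, and their part was not tested.

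Mutant larvae were set against wild type larvae to show the effect of losing zygotic Manf. None of the 27 genes was called, where 2.68% of all genes were (limma; 7 of the 27 had an unadjusted p below 0.05, as had 2081 of all genes). The median was -0.23 against -0.02, and 20 of 27 were negative. In 7 of the 27 every mutant larva lay below every wild type larva, which 7.83% of all genes did: CycB3, fzr, pim, borr, Spc25, barr and ncd.

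The nearest to a call was ncd, a minus-end motor that focuses spindle poles. It read 8.31, 8.66, 9.03 and 9.29 in mutant larvae, against 9.83, 9.90, 9.60 and 9.64 in wild type larvae (-0.92, SE 0.25, adjusted p = 0.0349). pim, whose product holds separase inactive until anaphase, read 8.63, 8.82, 9.10 and 8.94 in mutant larvae, against 10.16, 10.25, 10.28 and 10.25 in wild type larvae. The groups were far apart and the difference was -1.36 (SE 0.39, adjusted p = 0.0503). With larvae fitted apart from embryos the adjusted p was 1.94e-04, and Spc25 was called as well (-0.72, adjusted p = 0.00149). fzr read 13.01, 12.77, 12.87 and 12.83 in mutant larvae (-0.44, adjusted p = 0.199), and CycB 9.85, 9.92, 9.93 and 10.22 (-0.33, adjusted p = 0.845), overlapping with wild type larvae.

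In the mutant larvae some of these genes differed between the number series, which also differ there in dye and age window. CycE read 9.57 and 9.34 in mutant larvae 2 and 4 and 10.80 and 10.43 in those labelled 65 and 66, and all 4 together did not differ from wild type larvae beyond their spread (-0.12, adjusted p = 0.944). Incenp likewise read 13.38 and 13.56 in the low series and 15.02 and 14.90 in the high series of mutant larvae, against 13.32 to 14.04 in wild type larvae (0.55, adjusted p = 0.708). Within the low series the median difference of the 27 between mutant and wild type larvae was -0.35 with 25 of 27 negative, and within the high series 0.05 with 12 of 27 negative; no gene was called in either. Without the libraries labelled mz mutant embryo 1 and mutant larvae 65 and 66, ncd (-1.26, adjusted p = 7.40e-04) and cid (-0.88, adjusted p = 9.55e-04) were called lower. The mutant larvae then left were labelled with Alexa488 and reach 50 h, while the wild type larvae were labelled with Cy3 and reach 45 h. For that fit the share of all genes called is not given here. Of 26 DNA replication genes 2 were lower in mutant larvae than in wild type larvae, with a median of -0.48, and of 59 other cell cycle genes 1 was, ida (-0.72, adjusted p = 0.00599). Of 7 larval gut genes all were positive and Mal-A1 was called higher (1.37, adjusted p = 1.70e-04), with a mean level of 14.47 to 14.81 in mutant and 13.79 to 14.19 in wild type larvae. All 5 neuron genes were negative with none called, at 10.56 to 10.71 in mutant and 10.65 to 11.04 in wild type larvae. The neuroblast genes lay at 10.17 to 10.42 in mutant and 10.21 to 10.44 in wild type larvae. The part of these markers was not tested.

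**Figure D4:**
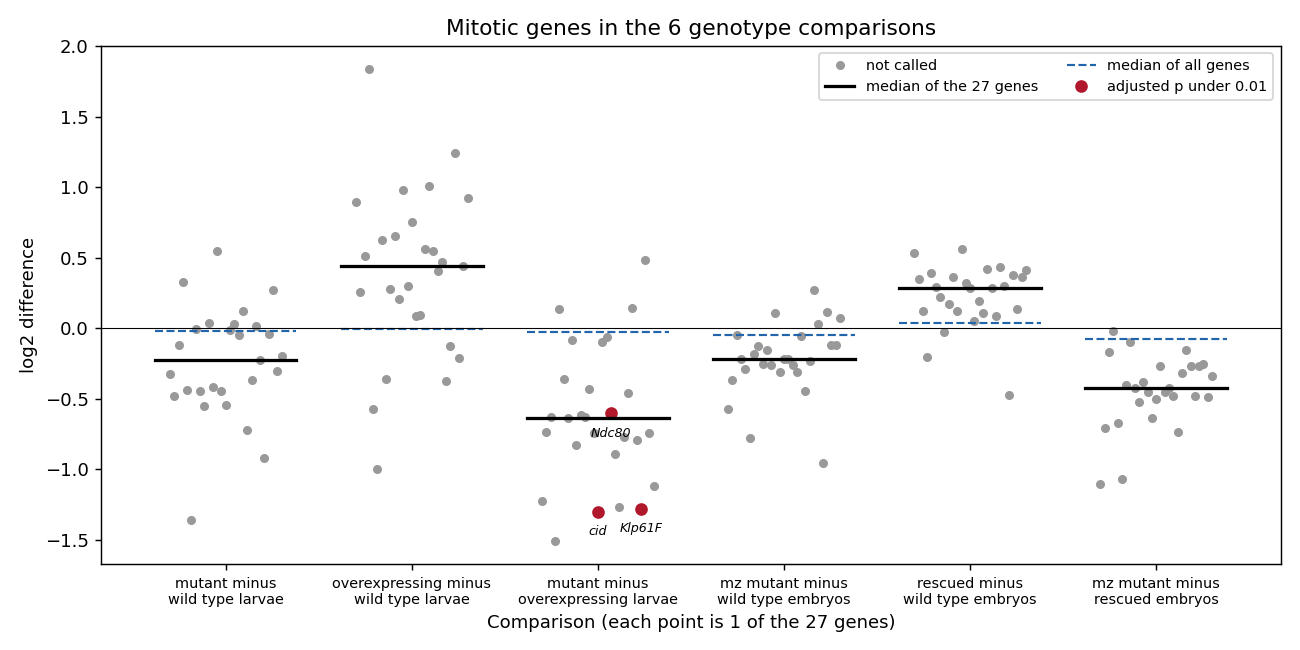
Log2 differences of the 27 genes in the 6 genotype comparisons (one point per gene), with the median of the 27 (black line) and of all genes (blue dashes); red marks adjusted p below 0.01. Red points occur only for mutant minus overexpressing larvae (cid, Klp61F and Ndc80), and all 27 points lie below 0 for mz mutant minus rescued embryos.

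Mz mutant embryos were set against wild type embryos to show the effect of losing both Manf supplies. None of the 27 genes was called, where 6.42% of all genes were (limma; 2 of the 27 had an unadjusted p below 0.05, as had 3276 of all genes). The median was -0.22 against -0.05 over all genes, and 22 of 27 were negative where 57.0% of all genes were. In 1 of the 27, Ndc80, every mz mutant embryo lay below every wild type embryo, which 7.29% of all genes did.

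ncd had the largest difference. It read 8.98 in the library labelled mz mutant embryo 1 and 7.73, 7.69 and 7.95 in mz mutant embryos 4, 87 and 88, against 9.30, 9.13, 8.83 and 8.93 in wild type embryos. All 4 together gave -0.96 (SE 0.25, adjusted p = 0.0148). Without the library labelled mz mutant embryo 1, whose Manf level is also that of wild type embryos, ncd gave -1.26 (adjusted p = 2.61e-04) and was the 1 gene called. pim showed the same layout, with 10.01 in that library and 8.25, 8.28 and 8.01 in the others, against 9.68, 8.69, 9.85 and 9.45 in wild type embryos (-0.78, adjusted p = 0.226, and -1.24, adjusted p = 0.0121, without it). Ndc80 read 8.09, 7.91, 7.94 and 7.91 in mz mutant embryos 1, 4, 87 and 88, below the 8.13 to 8.41 of wild type embryos (-0.31, SE 0.11, adjusted p = 0.0764).

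CycB read 11.63, 10.30, 9.40 and 10.61 in mz mutant embryos, again with the library labelled 1 on top, against 10.61 to 12.01 in wild type embryos (-0.57, SE 0.45, adjusted p = 0.499). CycE read 8.58, 8.78, 8.48 and 8.52 (-0.05, SE 0.34) and fzr 12.58, 12.37, 12.06 and 11.97 (-0.29, SE 0.18, adjusted p = 0.350). Within the high series fzr was called (-0.70, adjusted p = 0.00934), while within the low series it gave 0.13. All 6 centromere and kinetochore genes were negative, from -0.45 (Spc25) to -0.06 (Nuf2), with -0.22 for cid and for cal1 and -0.26 for Cenp-C. The positive genes were glu (0.27), Klp61F (0.11), Incenp (0.11), scra (0.07) and barr (0.03). Of 59 other cell cycle genes the kinesin-13 gene Klp10A was higher (0.78, adjusted p = 0.00332) and the cytokinesis RhoGEF gene pbl was lower (-1.76, adjusted p = 0.00158). Of 26 DNA replication genes 1 was higher, Orc1 (1.06), with a median of -0.27. The neuroblast genes had mean levels of 10.69 to 10.99 in mz mutant embryos and 10.56 to 10.70 in wild type embryos, with insc higher (1.67), and their part was not tested.

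Rescued embryos were set against wild type embryos to ask what the paternal copy leaves changed. None of the 27 genes was called, where 0.164% of all genes were (limma; 2 of the 27 had an unadjusted p below 0.05, as had 667 of all genes), and the smallest adjusted p was 0.798. The median was 0.29 against 0.03, with 24 of 27 positive where 57.5% of all genes were. In none of the 27 did every rescued embryo lie above every wild type embryo, which 2.37% of all genes did. CycB read 11.07, 12.22, 12.54 and 10.54 in rescued embryos 1, 2, 66 and 84 (0.53, SE 0.45), CycE 8.38, 8.53, 9.73 and 8.40 (0.12, SE 0.34) and fzr 12.44, 12.71, 13.39 and 13.15 (0.39, SE 0.18). In each of these 3 genes rescued embryo 66 was the highest sample. The negative genes were ncd (-0.48), fzy (-0.20) and Bub1 (-0.03). In the same comparison 22 of 26 DNA replication genes, 7 of 7 larval gut genes (median 0.37) and 6 of 8 neuroblast genes (median 0.18) were positive and 5 of 5 neuron genes were negative (median -0.36), with none called. The mean level of the larval gut genes was 14.07 to 14.33 in rescued and 13.42 to 14.13 in wild type embryos, that of the neuron genes 10.39 to 10.74 in rescued and 10.64 to 10.85 in wild type embryos, and that of the neuroblast genes 10.64 to 11.00 in rescued and 10.56 to 10.70 in wild type embryos. Their part was not tested.

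Mz mutant embryos were set against rescued embryos, which share the mutant mothers and differ in the paternal copy. None of the 27 genes was called, where 3.99% of all genes were (limma; 9 of the 27 had an unadjusted p below 0.05, as had 3113 of all genes). All 27 were negative by the probe of highest mean, with a median of -0.42 against -0.08 over all genes, where 61.5% of all genes were negative. Among their other probes, 2 of 3 of fzy, 2 of 13 of CycE, 1 of 4 of fzr, 1 of 2 of Bub3 and 1 of 3 of glu were positive, at most 0.10. Of 26 DNA replication genes 21 were negative, with a median of -0.51, and of 59 other cell cycle genes 46 were, with a median of -0.22. The differences between these lists were not tested. In 1 of the 27, Ndc80, the groups do not overlap, which 6.77% of all genes showed with mz mutant embryos below. Ndc80 lay between 7.91 and 8.09 in mz mutant embryos and read 8.58, 8.37, 8.33 and 8.28 in rescued embryos (-0.42, SE 0.11, adjusted p = 0.0227). fzr gave -0.67 (SE 0.18, adjusted p = 0.0205), CycB -1.10 (SE 0.45, adjusted p = 0.130), pim -1.07 (adjusted p = 0.0898) and Spc25 -0.73 (adjusted p = 0.0845). Near 0 lay fzy (-0.02), Bub1 (-0.10), glu (-0.16) and CycE (-0.17).

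Without the library labelled mz mutant embryo 1, 3 genes were called lower in mz mutant than in rescued embryos, fzr (-0.79, adjusted p = 0.00626), pim (-1.53, adjusted p = 0.00337) and Spc25 (-1.04, adjusted p = 0.00358), and 26 of 27 were negative. With mutant larvae 65 and 66 left out as well there were 4, cid, ncd, pim and Spc25. The share of all genes called in these fits is not given here, so the counts cannot be set against it. Without rescued embryo 1, fzr was called (-0.83, adjusted p = 0.00605). Among the neuroblast genes insc was higher (1.52) and ase lower (-0.69) in mz mutant than in rescued embryos, and the list's mean level was 10.69 to 10.99 in mz mutant and 10.64 to 11.00 in rescued embryos. Its part in the values above was not tested.

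The effect of the mutation was compared between the stages by its interaction with stage, the difference in larvae minus that in embryos. None of the 27 genes was called, where 1.41% of all genes were, and none had an unadjusted p below 0.05 (limma; 1733 of all genes had). The interaction values lay between -0.58 (pim, SE 0.56) and 0.55 (fzy, SE 1.03). For ncd, the gene nearest to a call against wild type at both stages, it was 0.04 (SE 0.35). Without the libraries labelled mz mutant embryo 1 and mutant larvae 65 and 66 none was called either, and the values lay between -0.65 (CycE, SE 0.50) and 0.80 (cal1, SE 0.48), with pim at -0.27.

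**Figure D5:**
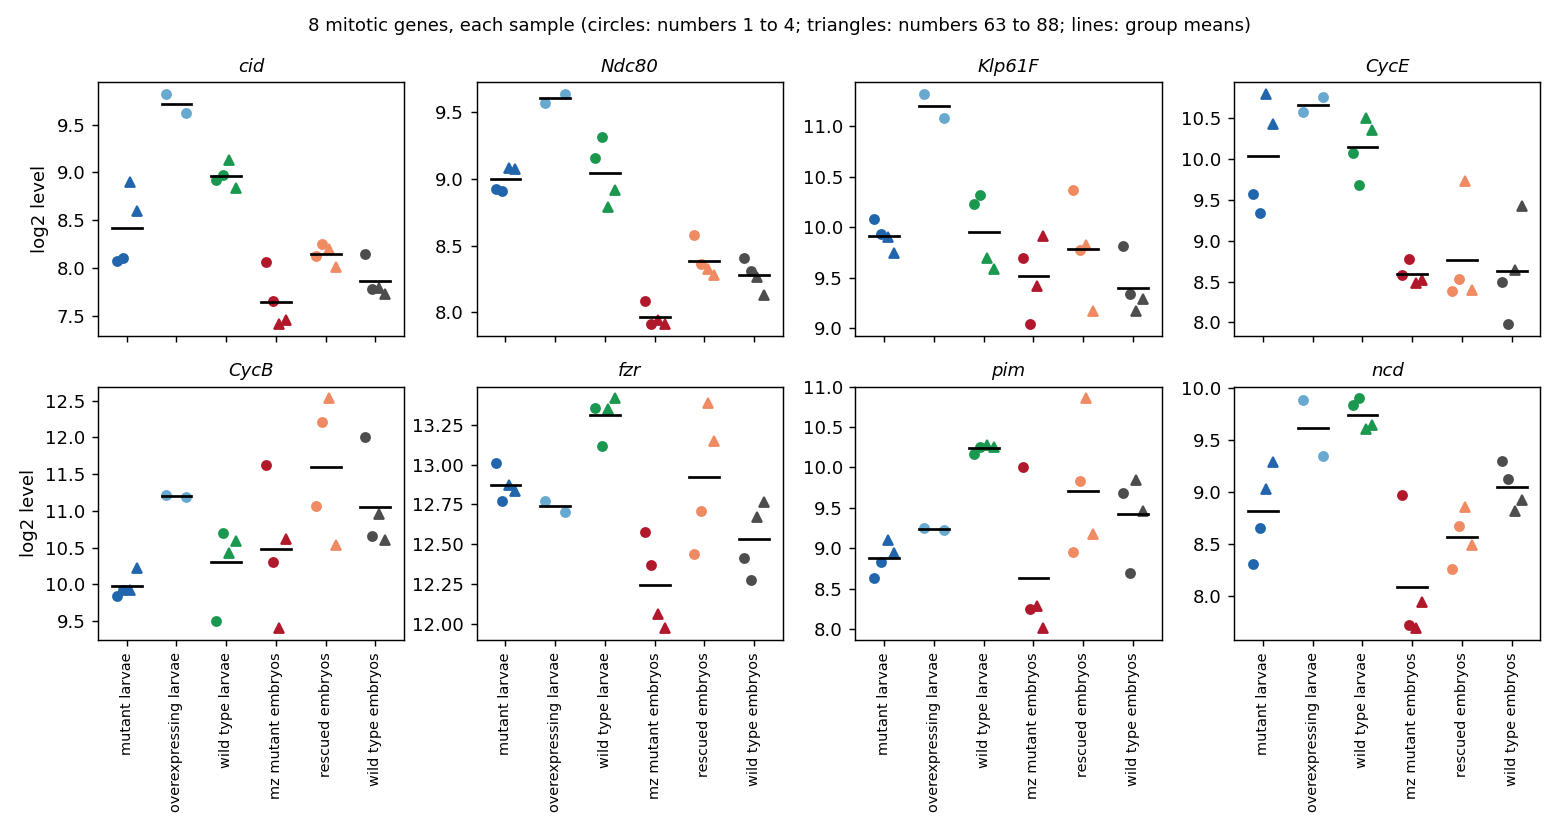
Log2 level (vertical axes) of 8 of the genes in each sample of the 6 groups, with circles for the low and triangles for the high number series and lines for group means. Overexpressing larvae stand above all other samples for cid, Ndc80 and Klp61F, and the library labelled mz mutant embryo 1 lies above the other mz mutant embryos for pim and ncd.

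Within the groups the genes varied together to different degrees. After each gene's group mean was taken off, its deviation over the 22 samples correlated with the mean deviation of the other 26 genes at 0.86 for borr, 0.83 for Nuf2, 0.82 for glu, 0.80 for thr, 0.79 for CycB3 and 0.76 for CycB. The correlation was 0.17 for CycE, 0.11 for fzr, 0.07 for Incenp, -0.07 for barr and -0.26 for fzy. These are descriptions over samples that share labelling and arrays, and the 22 points share each sample's scaling. Deviations were widest for fzy (SD 0.94), Incenp (0.63), CycB3 (0.59) and CycB (0.58), and narrowest for Ndc80 (0.12). In the library labelled mz mutant embryo 1, 23 of the 27 genes lay above their group mean, as they did in wild type embryo 1, and in rescued embryo 84, 24 lay below it.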

How the data were processed

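RNA of 24 whole-animal samples was labelled with Cy3, Cy5 or an Alexa dye and hybridised to Agilent 4x44K arrays. The values are log2 levels deposited by the authors as 1 table; the submitters' processing notes name limma. Scanner files and detection flags were not used here. Sample medians lie between 9.15 and 9.16, and all values between 6.05 and 15.56. The number of arrays limits the precision. Samples were grouped by their labels. Probe names came from the platform annotation, updated by gene identifier: 29872 of 45220 probes carry 1 gene and 15348 none. A gene's level is that of its probe of highest mean.

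Group means of 22 samples were fitted with limma 3.58.1 in R 4.3.3 (lmFit, eBayes), p-values were adjusted over 12799 genes, and adjusted p below 0.01 counted as called. The fit was first tested on simulated data. Members and lists were chosen with earlier results of these data known. Genes are named by a fixed rule. Called members have per-sample values or ranges (barr, Cenp-C and feo have ranges). Per-sample values are also given for CycB, CycE and fzr, and a value for each other member. Up to 6 other cell cycle genes with the largest called difference are named. Values outside this rule were added after they were seen, for genes near a call, pim and ncd above all, and for fzy and Incenp. A planned motif count in promoters was not run. Alternatives were all 24 samples, blocks, dye, other scalings, filters, probe summaries, thresholds and weights, stages or series alone, and each sample left out. The share of all genes called is given for the main fit only, so counts of calls in the other fits cannot be set against it. Fits without 3 libraries labelled mutant whose Manf level lies within the range of all wild type samples of their stage were added after seeing the data.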

Additional observations from a re-analysis of the deposited data

Results flagged for a closer look

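In 9 of 135 sets of 4 samples (27 genes in 5 groups) 1 sample stood apart from the other 3 by Dixon's test; chance flags about 1 in 20 such sets. Rescued embryo 66 was high for CycE (9.73, the others 8.38 to 8.53) and for Bub1 (11.98, the others 11.24 to 11.29). The library labelled mz mutant embryo 1 was high for pim (10.01, the others 8.01 to 8.28). Mutant larva 4 was low for thr (8.24, the others 8.85 to 8.96) and for aurB (9.69, the others 10.44 to 10.59), and mutant larva 2 was high for glu (11.13, the others 10.83 to 10.87). Wild type larva 1 was high for thr (9.11, the others 8.59 to 8.66), wild type larva 63 for Spc25 (9.72, the others 9.59 to 9.61) and wild type embryo 1 for cid (8.15, the others 7.73 to 7.80).

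In overexpressing larvae 69 and 70, which the comparisons leave out, 5 of the 27 genes read above all 4 wild type larvae in both samples (fzr, Bub1, Bub3, mad2 and ncd) and 12 read below all of them in both. The share of all genes that lay above or below in this way is not given here, so neither count can be set against it. mad2 read 11.08 and 13.16 in larvae 69 and 70, against 8.36 to 8.61 in wild type larvae, and barr read 7.59 and 7.54, against 11.69 to 11.78. The 2 larvae differed from each other for CycE, at 7.43 and 14.47, and for CycB3, at 11.94 and 7.09.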

How the results depend on the processing

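The 11 stage calls stayed between 9 and 12 when 1 sample was left out, and numbered 2 with all 24 samples. Mutant against overexpressing larvae had 3 calls. The number was 0 to 4 with 1 sample left out, 1 with all 24 samples (Bub3, none of the 3), 1 with dye in the model, 0 with the replicate block, 5 at a threshold of 0.05 and 6 with array weights. In the comparisons with no call, leaving out 1 sample gave 0 to 1 calls for mz mutant against wild type embryos, 0 to 3 for mz mutant against rescued embryos and 0 to 2 for mutant against wild type larvae. Averaging probes gave 1 call each for mz mutant against wild type embryos, mutant against wild type larvae and overexpressing against wild type larvae. In mz mutant against wild type embryos there was 1 call at 0.05, 1 with weights and 2 in the high series. There was 1 without the 3 libraries labelled mutant with Manf within the range of wild type samples of their stage. In mz mutant against rescued embryos these counts were 2, 1, 1 and 4. Mutant against wild type larvae gave 1 call at 0.05, 3 with weights, 2 with stages apart and 2 without the 3 libraries, and overexpressing against wild type larvae 2, 2, 1 and 1. The causes were not tested.

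With all 24 samples the sign turned for 15 of the 27 genes in overexpressing against wild type larvae and for 12 in mutant against overexpressing larvae, among them Klp61F (-0.014) and Ndc80 (-0.25) in overexpressing against wild type larvae and for Ndc80 (0.21) and Spc25 (0.14) in mutant against overexpressing larvae. The sign of fzy in mutant against wild type larvae turned with array weights (-0.093), in the low series (-0.26) and without wild type larva 63 (-0.028) or 65 (-0.024), and leaving out 1 sample gave up to 0.71. Whether samples of the same number in different groups belong together is not given in the labels. Deviations of 19 same-numbered pairs correlated at -0.23 to 0.54, 14 of them above 0.1. Pairs of unlike number were not computed, so these values cannot decide it. With the replicate block there were 8 stage calls, none was made between genotypes, and pim in mz mutant against wild type embryos gave 0.17. With it 14 of 27 genes were negative in mz mutant against wild type embryos, with a median of -0.023 where all genes had -0.040, and 22 of 27 against rescued embryos. The high series holds no usable overexpressing larva, so that comparison has no value there.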
